A study of Rattus norvegicus with 46 samples.

Results

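The transcripts of 9 enzymes and enzyme partners of the prostaglandin and leukotriene pathways were followed in rat abdominal skin before, during and after a course of radiation. They are Ptgs1, Ptgs2, Ptges, Ptgds, Ptgis, Hpgd, Alox5, Alox5ap and Alox15, taken by name from the array's annotation, and each was read by 1 of the 15049 features that carry a single gene symbol. All 9 were measured, out of 23188 features tested. Sprague-Dawley rats, an outbred laboratory stock, gave 5 mm punch biopsies of abdominal skin, 46 arrays from 9 rats biopsied repeatedly. The 6 baseline arrays are from untreated skin on day -10. The other arrays are from days -4, 1, 3, 7 and 14 in 3 arms. In the irradiated vehicle arm, rats received 6 MeV electrons to the abdominal soft tissue, 40 Gy in 4 fractions of 10 Gy over 8 days, with injections of the solvent DMSO (3 rats, 3 arrays per day). In the irradiated RTA-408 arm, the same radiation was given with RTA-408 in DMSO (3 rats, 3 arrays per day). RTA-408 is a synthetic triterpenoid that activates NRF2, the transcription factor of antioxidant genes. In the unirradiated vehicle arm, DMSO was injected with sham radiation (2 arrays per day). Injections fell on days -7, -5, -3 and 0, so day -4 lies within the course, and every arm carries DMSO and earlier punches that the baseline lacks. Unirradiated replicate 2 was rat 318 up to day 3 and rat 317 on days 7 and 14. The array of unirradiated replicate 2 on day 1 has a title that names day 1 and a description that names day 3, and the title was followed.

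The enzymes work in sequence. Phospholipases free arachidonic acid from membranes. The cyclooxygenases, Ptgs1 (COX-1, usually made steadily) and Ptgs2 (COX-2, usually induced by cytokines and injury), turn it into prostaglandin H2, from which separate synthases make the single prostaglandins: Ptges makes prostaglandin E2, Ptgds prostaglandin D2 and Ptgis prostacyclin. Hpgd, 15-hydroxyprostaglandin dehydrogenase, begins their breakdown. On the other branch, 5-lipoxygenase (Alox5) and the protein that presents arachidonic acid to it (Alox5ap, also called FLAP) start leukotriene synthesis, mostly in myeloid cells, and Alox15, first known from reticulocytes, oxidizes the same fatty acid at another carbon. In skin, prostaglandin E2 and leukotrienes are best known as mediators of redness, pain and leukocyte entry.

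Promoter sequences are given for 3 members to place the changes beside the DNA upstream of each gene. Ptgs1 and Ptgs2 are shown because they encode enzymes of the same reaction and were called against unirradiated skin on different days. Alox5 is shown because it was higher in irradiated skin on each day. Each run is the 250 bases before the annotated start in RefSeq, build GRCr8, written 5′ to 3′ on the gene's strand, with matches to the motifs searched in capitals. Ptgs2 is at chr13:64713813-64714062 (plus strand), Ptgs1 at chr3:39981169-39981418 (plus strand) and Alox5 at chr4:151251127-151251376 (minus strand).
Ptgs2: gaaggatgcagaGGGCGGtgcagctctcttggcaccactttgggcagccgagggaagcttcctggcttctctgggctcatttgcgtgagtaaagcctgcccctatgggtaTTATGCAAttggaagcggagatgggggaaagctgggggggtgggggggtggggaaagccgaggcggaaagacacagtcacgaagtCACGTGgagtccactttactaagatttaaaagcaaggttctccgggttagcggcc
Ptgs1: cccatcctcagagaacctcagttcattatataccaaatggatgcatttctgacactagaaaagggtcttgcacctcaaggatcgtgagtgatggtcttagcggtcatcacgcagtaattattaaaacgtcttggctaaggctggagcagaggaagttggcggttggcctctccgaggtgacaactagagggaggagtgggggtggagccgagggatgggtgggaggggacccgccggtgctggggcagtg
Alox5: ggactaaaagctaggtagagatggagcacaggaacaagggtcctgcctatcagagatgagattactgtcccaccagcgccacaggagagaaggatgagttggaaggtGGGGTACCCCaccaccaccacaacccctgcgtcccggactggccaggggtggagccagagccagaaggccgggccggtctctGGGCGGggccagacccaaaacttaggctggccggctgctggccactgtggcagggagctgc
The motifs searched, on both strands, were TATAAA (the TATA box), GGGCGG (the GC box), CACGTG (an E-box), TGACGT (the core of a cAMP response element), TGANTCA (AP-1), TGACNNNGC (the antioxidant response element bound by NRF2), TTGCNNAA (C/EBP type) and the NF-kB consensus. TGACGT and TGACNNNGC begin with the same letters, so that 1 site can match both. The Ptgs2 sequence held GGGCGG at bases -238 to -233 from the start, CACGTG at -55 to -50, and TTGCNNAA on the other strand at -140 to -133. The Alox5 sequence held a match to the NF-kB consensus at -143 to -134 and GGGCGG at -61 to -56. The Ptgs1 sequence held none of the 8 motifs. Of 27457 rat promoter windows of the same length, 32.4% held GGGCGG, 13.1% TATAAA, 10.2% TGACNNNGC, 9.2% TTGCNNAA, 7.25% TGACGT, 6.36% TGANTCA, 5.79% CACGTG and 3.52% the NF-kB consensus. Among the other members with a RefSeq window, Ptges held GGGCGG (-87) and TTGCNNAA (-221), Hpgd held GGGCGG (-99), and Ptgds held GGGCGG at 2 overlapping places. Windows for Ptgis, Alox5ap and Alox15 were not used here. A match is a run of letters and does not show binding.

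Signals are the authors' deposited log2 values and differences are log2 differences on that scale. The median signal of the negative control features of each array, 5.78 to 6.52, was used as the level under which a transcript is not measured. Arrays of a group correlated with r from 0.927 to 0.990 over all features. Spike-in control signals divide the arrays into 3 sets of 18, 10 and 18 arrays. All baseline arrays are in the first set, unirradiated arrays are in the first set on days -4 and 1 and in the third later, and each irradiated arm has 1 array of the second set per day. Keratinocyte and fibroblast markers were well above the controls in every array (list means 12.1 to 15.7 and 13.2 to 15.3). The list mean of skeletal muscle markers ran from 6.16 to 18.5. Whether the punches held different amounts of muscle was not tested. Irradiated vehicle replicate 3 (rat 320) on day 14 stands apart: its macrophage and monocyte list mean was 14.6, against 10.2 and 11.3 in the other 2 arrays of its group, its neutrophil mean 8.60 and its T and NK cell mean 8.39 were the highest of the 46 arrays, and its keratinocyte mean of 12.1 and adipocyte mean of 8.49 were the lowest. The day 14 calls of the radiation comparison are given with and without rat 320, whose arrays of all days were then left out. In whole skin, more cells of a type and more RNA per cell cannot be told apart.

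**Figure D1:**
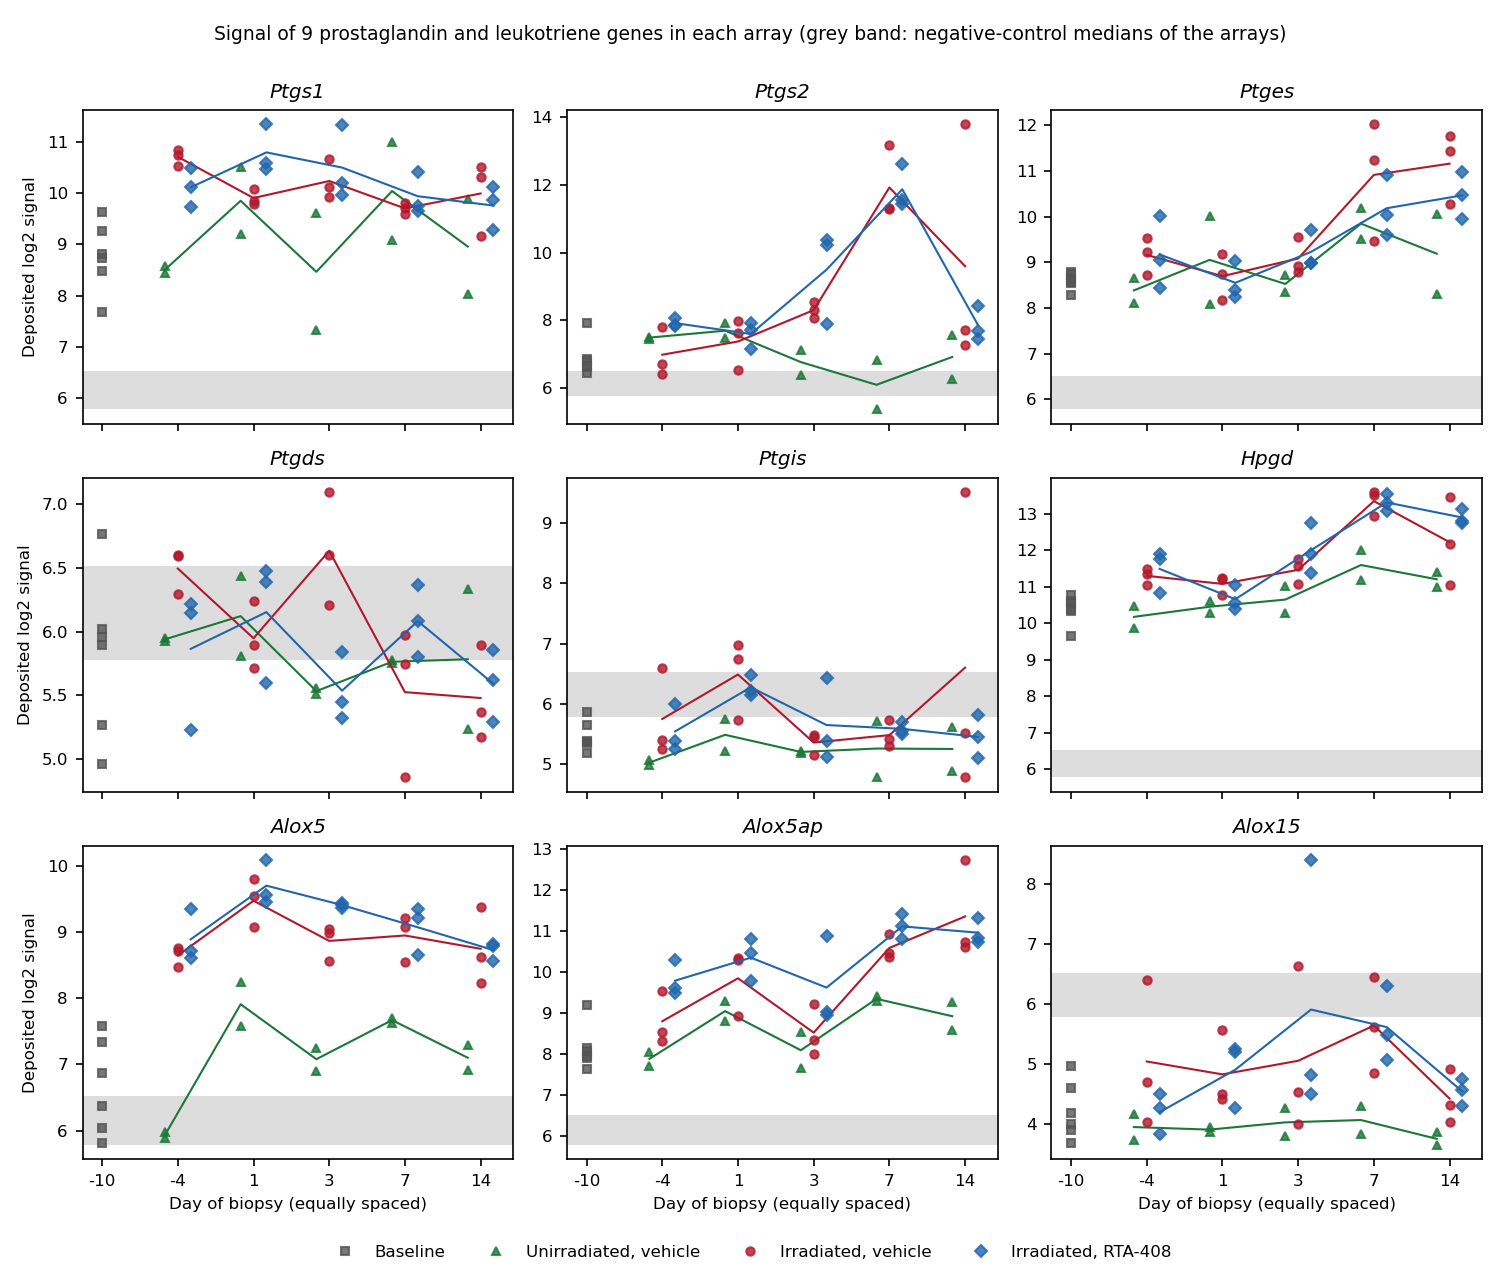
Deposited log2 signal of the 9 transcripts (y axes, 1 panel each) by day of biopsy (x axes, days equally spaced), 1 point per array, with lines through the means of each arm. The grey band spans the negative control medians of the arrays, 5.78 to 6.52. Alox5 of irradiated skin lies above nearly all unirradiated and baseline arrays on every day, Ptgs2 peaks on day 7 in irradiated skin, and Ptgds, Ptgis and Alox15 lie mostly in or under the band.

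Radiation was examined by comparing irradiated with unirradiated vehicle skin on each day, with limma's moderated test over all features. A transcript is called, or passes, at an adjusted p under 0.05. Of the 9 members, 2 were higher in irradiated skin on day -4 (Ptgs1, Alox5; 3.23% of all features were called higher), 1 on day 1 (Alox5; 1.2%), 1 on day 3 (Alox5; 0.656%), 3 on day 7 (Ptgs2, Hpgd, Alox5; 2.69%) and 3 on day 14 (Ptges, Alox5, Alox5ap; 4.43%). None was called lower. Ptgds, Ptgis and Alox15 did not pass on any day. The median fitted difference of the 9 was 0.92, 0.63, 1.02, 1.24 and 1.35 on the 5 days, beside medians of 0.07, -0.03, 0.05, -0.06 and 0.01 over all features. Some of these medians rest on members at the control level. With such members at their bound, or at 0 where no direction can be given, the medians were 0.92, 0.05, 0.82, 1.07 and 1.04. Without rat 320 the day 14 median was 0.78, none of the 3 day 14 calls held, and 1.05% of all features were called higher on that day.

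Ptgs2, the inducible cyclooxygenase, had the largest difference of any member. At baseline its signal ran from 6.47 to 7.94. On day -4 the irradiated vehicle arrays read 6.43, 7.81 and 6.73 and the unirradiated ones 7.53 and 7.46, so the groups overlapped. On day 1 they read 7.99, 6.53 and 7.62 against 7.47 and 7.93, again with overlap. On day 3 the irradiated arrays, at 8.06, 8.32 and 8.54, all lay above the unirradiated 7.14 and 6.41, but the difference of 1.53 ± 1.00 (SE) did not pass (adjusted p = 0.537). On day 7 irradiated vehicle skin read 11.28, 11.31 and 13.17 and unirradiated skin 6.83 and 5.38. Each irradiated array was far above both unirradiated ones: the means were 11.92 ± 1.08 (SD, n = 3) and 6.10 ± 1.02 (SD, n = 2), 5.81 ± 1.00 (SE) apart by limma (adjusted p = 9.59e-04). When unirradiated replicate 2 was left out, whose signal was below its array's control level, the day 7 difference was 5.09 and did not pass (adjusted p = 0.0717).

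By day 14 the Ptgs2 arrays of irradiated vehicle skin read 7.73, 7.29 and 13.78, the last from rat 320, and those of unirradiated skin 7.57 and 6.28. The first 2 were back in the range seen before day 7. The mean difference of 2.67 ± 1.00 (SE) did not pass (adjusted p = 0.107). It was 0.58 (adjusted p = 0.812) without rat 320, and 3.61 and 3.83 (adjusted p = 0.0238 and 0.0275) without the first or the second vehicle replicate. Within rats, Ptgs2 went up from day 3 to day 7 in all 3 vehicle rats, by 2.99 to 4.63, and in all 3 RTA-408 rats, by 1.06 to 3.67. From day 7 to day 14 it changed by -4.91 to -2.99 in the 3 RTA-408 rats and by -4.02, -3.55 and 0.62 in the vehicle rats, the last in rat 320. Ptgs2 was the only member whose radiation effect changed over the 5 days by limma's moderated F-test (adjusted p = 0.0339; 2.16% of all features passed). That call ended without unirradiated replicate 1 (adjusted p = 0.0923) or 2 (0.331), and within spike-in sets (0.0862).

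Ptgs1, the constitutive cyclooxygenase, was called on day -4 only. The change of its radiation effect over the 5 days did not pass (limma's F-test, adjusted p = 0.164). The courses of the 2 cyclooxygenases were not compared by a test. On day -4 irradiated vehicle skin read 10.75, 10.54 and 10.85 and unirradiated skin 8.57 and 8.44, with no overlap. The difference was 2.21 ± 0.58 (SE; limma's adjusted p = 0.0169), and the call ended without vehicle replicate 1 (2.19, adjusted p = 0.0642) or 3 (2.14, 0.0571). On day 1 irradiated skin read 9.79, 9.85 and 10.09 and unirradiated skin 10.50 and 9.20, which overlap (0.05, adjusted p = 0.982). On day 3 irradiated skin read 10.12, 9.92 and 10.68 and unirradiated skin 9.61 and 7.32. That difference of 1.77 (adjusted p = 0.125) passed only without unirradiated replicate 1 (2.92, adjusted p = 0.00195). On days 7 and 14 the differences were -0.34 and 1.04 (adjusted p = 0.829 and 0.363), the latter 1.97 without unirradiated replicate 2 (adjusted p = 0.0345) and 0.78 (0.731) without rat 320. The unirradiated arrays of Ptgs1 were widely spread, from 7.32 to 10.9959 over the 5 days, while the 15 irradiated vehicle arrays lay between 9.16 and 10.85.

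Ptges, the inducible prostaglandin E synthase, was called on day 14 only. The change of its radiation effect over the 5 days did not pass (limma's F-test, adjusted p = 0.361). On days -4, 1 and 3 its differences were 0.78, -0.36 and 0.56, none of them called. On day 7 irradiated skin read 9.47, 11.25 and 12.02, overlapping the unirradiated 9.50 and 10.19 (1.07, adjusted p = 0.339). On day 14 irradiated skin read 10.28, 11.43 and 11.76 and unirradiated skin 8.31 and 10.07. The groups did not overlap, and the difference was 1.97 ± 0.58 (SE; limma's adjusted p = 0.0329). The call ended without vehicle replicate 2 (1.83, adjusted p = 0.120) or 3 (1.67, 0.179) or unirradiated replicate 1 (1.09, 0.544), and with a replicate number term (1.79, 0.0582).

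Of the other synthases, Ptgds was at or below the control level of the array in 31 of the 46 arrays and never above 7.10. Its largest radiation difference, on day 3, did not pass (adjusted p = 0.173): the irradiated arrays read 6.60, 6.21 and 7.10 and both unirradiated arrays, 5.56 and 5.51, were under the controls, which puts it at 0.38 or more. Ptgis was at or below the controls in 39 arrays, among them all 16 baseline and unirradiated ones. On day 14 the irradiated vehicle arrays read 4.78, 5.51 and 9.51, the last, from rat 320, being the highest of the 46. Both unirradiated arrays were under the controls, so the difference is at least 0.50 (adjusted p = 0.279). It passed without vehicle replicate 1 (adjusted p = 0.0213), which leaves rat 320 and 1 other rat. Without rat 320 both groups were at the control level.

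Hpgd, the enzyme that inactivates prostaglandins, was above the controls in every array. On days -4, 1 and 3 its differences of 1.12, 0.63 and 0.82 did not pass (adjusted p = 0.116, 0.539 and 0.426). On day 7 irradiated skin read 13.60, 12.95 and 13.51 and unirradiated skin 11.20 and 12.0031, with no overlap. The difference was 1.75 ± 0.44 (SE; limma's adjusted p = 0.0180), and it did not pass without vehicle replicate 1 (1.63, adjusted p = 0.0652) or without unirradiated replicate 1 (1.35, 0.249) or 2 (2.16, 0.0717). On day 14 irradiated skin read 12.17, 13.47 and 11.05 and unirradiated skin 10.9995 and 11.42, which overlap (1.02, adjusted p = 0.184). Rat 320 was the lowest irradiated array there, and without it the difference was 1.61 (adjusted p = 0.0526).

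Alox5, the first enzyme of leukotriene synthesis, was the one member called on all 5 days. The 30 irradiated arrays of both drug arms ran from 8.236 to 10.09 and the 16 baseline and unirradiated arrays from 5.81 to 8.240, so that 29 of the 30 lay above every array of skin that had not been irradiated. On day -4, within the course, irradiated vehicle skin read 8.71, 8.76 and 8.47 and unirradiated skin 5.98 and 5.89. Both unirradiated arrays were under their controls, so the fitted difference of 2.72 ± 0.37 (SE; limma's adjusted p = 3.08e-05) is given as at least 2.33. On day 1 the arrays read 9.80, 9.54 and 9.08 against 8.24 and 7.58. On day 3 they read 8.9954, 9.04 and 8.56 against 7.25 and 6.91. The groups overlapped on none of the 5 days. On day 7 the readings were 9.22, 8.55 and 9.08 against 7.63 and 7.71, and on day 14 8.63, 8.24 and 9.39 against 6.91 and 7.29. From day 1 the differences were 1.57, 1.79, 1.28 and 1.65, each ± 0.37 (SE; limma's adjusted p = 0.0210, 0.00753, 0.0418 and 0.00566). The change of the effect over the 5 days did not pass (adjusted p = 0.347).

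The Alox5 call of day -4 held in each alternative run, and the other 4 did not hold in all. On day 1 adjusted p was 0.0980 and 0.0792 without vehicle replicates 1 and 2, and 0.0604 and 0.199 without unirradiated replicates 1 and 2. On day 3 it was 0.399 without unirradiated replicate 2. On day 7 it was 0.132 and 0.0973 without vehicle replicates 1 and 3, and 0.215 and 0.230 without the unirradiated replicates. On day 14 it was 0.0860 without rat 320 and 0.179 without unirradiated replicate 1. The difference stayed between 1.15 and 1.90 in these fits. With 1 unirradiated array left, that array is assumed to vary like the arrays of the other groups.

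Alox5ap, the partner of Alox5, was called on day 14 only. The change of its radiation effect over the 5 days did not pass (limma's F-test, adjusted p = 0.397). Its differences were 0.92, 0.80 and 0.43 on days -4, 1 and 3 and 1.24 on day 7, none of them called, although on day 7 the irradiated arrays (10.48, 10.36 and 10.93) lay above the unirradiated ones (9.41 and 9.29). On day 14 irradiated skin read 10.61, 10.73 and 12.73 and unirradiated skin 8.58 and 9.27, with no overlap. The difference of 2.43 ± 0.55 (SE) passed (limma's adjusted p = 0.00594). It did not pass without rat 320 (1.75, adjusted p = 0.0712) or unirradiated replicate 1 (2.09, 0.195).

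Some leukocyte markers were also higher in irradiated skin, mainly on days 7 and 14. Of 15 macrophage and monocyte markers, 1, 2, 0, 7 and 14 were higher in irradiated skin on days -4, 1, 3, 7 and 14. The mean of the list was 8.64 to 9.30 on day -4 in irradiated vehicle skin against 7.40 to 7.90 in unirradiated skin, 9.07 to 10.4 against 8.21 to 8.32 on day 1, 8.21 to 9.29 against 7.60 to 8.11 on day 3, 10.5 to 11.9 against 8.67 to 8.92 on day 7, and 10.2 to 14.6 against 8.18 to 9.04 on day 14. Of this list Itgam and Marco were at the control level in the median array. Of 13 neutrophil markers, 4 were higher on day 7 and 5 on day 14, with list means of 7.01 to 7.53 against 5.37 to 5.91 and of 5.88 to 8.60 against 5.05 to 6.01. Of them 9, Elane, Ngp, Camp, Ltf, Cxcr2, Csf3r, Mmp8, Mmp9 and Padi4, were at the control level in the median array. All 6 eosinophil markers and 7 of 11 mast cell markers, among them Mcpt1, Tpsab1 and Fcer1a, were at the control level too. So were 9 of 11 T and NK cell markers, among them Cd3e, Cd8a and Nkg7, so the mean of that list is mostly background. Without rat 320 the day 14 counts were 10 of 15 macrophage and 0 of 13 neutrophil markers. Over the 46 arrays, Alox5ap was closest to the macrophage list (r = 0.94) and next to dermal fibroblast (0.83) and T and NK cell (0.77) markers. Alox5 was closest to hair follicle markers, with r = -0.74, and next to the fibroblast (0.70), macrophage (0.67) and endothelial (0.63) lists. Ptgs2 was closest to the neutrophil list (0.85) and then the macrophage list (0.74), Ptges to the T and NK cell list (0.76), Hpgd to the neutrophil (0.69) and fibroblast (0.68) lists, and Ptgs1 to the endothelial (0.66) and hair follicle (-0.66) lists. These arrays share rats, days and treatments. The part of these cells in the member differences was not tested. On day 7, 3 of 4 wound keratinocyte markers were also higher, Krt17 by 2.63 ± 0.51 (SE; adjusted p = 0.00292) and Sprr1a by 3.91 ± 0.76 (SE; adjusted p = 0.00294), and their part in the Ptgs2 difference was not tested.

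**Figure D2:**
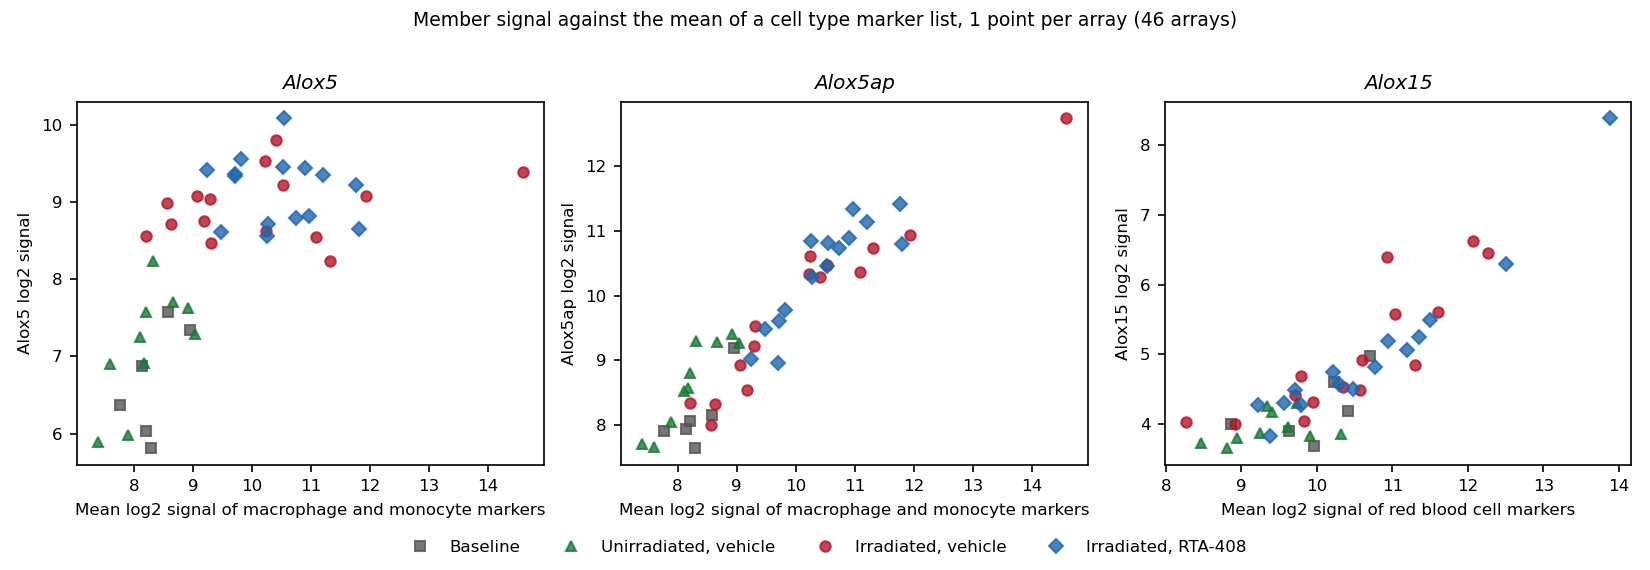
Log2 signal of Alox5 and Alox5ap against the mean log2 signal of 15 macrophage and monocyte markers, and of Alox15 against that of 5 red blood cell markers, 1 point per array. Alox5ap follows the macrophage mean along its whole range (r = 0.94). Alox5 follows it less closely (r = 0.67), and Alox15 follows the red blood cell mean (r = 0.90). Alox15 was at or below the controls in 41 of the 46 arrays, so this r rests mostly on signals under that level.

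Alox15 was at or below the controls in 41 of the 46 arrays. The 5 arrays above them were irradiated: 8.39 and 6.29 with RTA-408 (replicate 3 on day 3 and replicate 1 on day 7) and 6.40, 6.63 and 6.46 in vehicle replicate 2 (rat 321) on days -4, 3 and 7. The red blood cell list means of these arrays were 13.9, 12.5, 10.9, 12.1 and 12.3, where the 46 arrays ran from 8.27 to 13.9. A list mean of 11.4 also occurred with RTA-408 on day 1, where all 3 Alox15 arrays were under the controls. Over the arrays r between Alox15 and this list was 0.90, and the 3 transcripts closest to Alox15 were Hemgn, Alas2 and Hbb-bs (r = 0.91, 0.90 and 0.87), all known from erythroid cells. Alas2 is itself a marker of this list. The part of blood in these readings was not tested. No difference of Alox15 between arms was called. Against baseline, Alox15 with RTA-408 on day 3 did not pass (limma's adjusted p = 0.0579), with 2 of 3 arrays under the controls. It passed in some alternatives, among them array weights (0.0310) and the filter on dim features (0.0473). On day 7 Alox15 passed in both irradiated arms with the compared groups alone (limma's adjusted p = 0.0274 with vehicle and 0.0151 with RTA-408).

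Each arm was also set against baseline. These comparisons share the 6 baseline arrays, and the irradiated vehicle arrays are those of the radiation comparison. In irradiated vehicle skin 2, 2, 3, 5 and 5 members were called higher on days -4, 1, 3, 7 and 14 (6.46%, 5.08%, 4.57%, 7.92% and 9.47% of all features), and none lower. Alox5 was higher by 1.98, 2.81, 2.20, 2.28 and 2.08, each ± 0.29 (SE; the highest of limma's adjusted p was 2.06e-05, on day -4). Ptgs1 was higher on days -4 and 3, by 1.94 and 1.47 ± 0.45 (SE). Alox5ap was higher on days 1, 7 and 14, by 1.69, 2.43 and 3.20 ± 0.43 (SE). Hpgd was higher from day 3, by 1.08, 2.96 and 1.84 ± 0.34 (SE), and Ptges on days 7 and 14, by 2.32 and 2.56 ± 0.45 (SE). Ptgs2 was higher by 5.03 ± 0.77 (SE) on day 7 (limma's adjusted p = 1.83e-05) and by 2.71 on day 14 (adjusted p = 0.0130), the latter 0.61 (adjusted p = 0.598) without rat 320. The other 4 day 14 calls held without it: 1.76 for Alox5, 2.51 for Alox5ap, 2.43 for Hpgd and 2.26 for Ptges (adjusted p from 4.01e-05 to 0.00313). All baseline arrays are in the first spike-in set. With the set as a block, 10 of the 17 calls stood, among them all 5 of Alox5. Those that ended were Alox5ap on day 7 (1.99, adjusted p = 0.0642), Ptgs1 on day 3 (1.26, 0.430), Hpgd on days 3 (0.78, 0.551) and 14 (1.54, 0.0857), Ptges on days 7 (1.85, 0.130) and 14 (2.10, 0.0729) and Ptgs2 on day 14 (2.78, 0.202). Some smaller calls also ended when a replicate was left out. Alox5ap on day 1 did not pass without vehicle replicate 1 (1.48, adjusted p = 0.0738) or 2 (1.45, 0.0851). Ptgs1 on day 3 did not without any 1 vehicle replicate (0.0983, 0.0847 and 0.193) or baseline replicate 1, 3 or 6 (0.0675, 0.0897 and 0.0512). Hpgd on day 3 did not without vehicle replicate 1 or 2 (0.209 and 0.0787) or baseline replicate 3, 5 or 6 (0.0627, 0.0912 and 0.0620).

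In irradiated RTA-408 skin 3, 3, 5, 5 and 4 members were called higher than baseline (4.22%, 6.17%, 5.33%, 9.12% and 5.53% of all features), and none lower. Alox5 (2.22, 3.04, 2.74, 2.41 and 2.06) and Alox5ap (1.64, 2.20, 1.47, 2.96 and 2.81) were called on all 5 days. Hpgd was called on days -4, 3, 7 and 14 (1.10, 1.62, 2.93 and 2.51), Ptges on days 7 and 14 (1.59 and 1.87) and Ptgs1 on days 1 and 3 (2.03 and 1.73). Ptgs2 was called on days 3 and 7. On day 3 its arrays read 7.89, 10.37 and 10.24, on average 2.61 ± 0.77 (SE) above baseline (limma's adjusted p = 0.0265), which did not pass without replicate 2 (2.17, adjusted p = 0.200) or 3 (2.24, 0.201). On day 7 they read 11.56, 11.43 and 12.61, 4.97 ± 0.77 (SE) above baseline (limma's adjusted p = 1.73e-05). On day 14 they read 7.46, 8.44 and 7.70, of which 1 was above the highest baseline array. With the spike-in set as a block, 13 of the 20 calls stood, among them all 5 of Alox5. Those that ended were Hpgd on days -4 (1.02, adjusted p = 0.108) and 3 (1.32, 0.25), Alox5ap, Ptgs1 and Ptgs2 on day 3 (1.02, 0.533; 1.53, 0.338; 2.68, 0.327) and Ptges on days 7 (1.12, 0.413) and 14 (1.40, 0.313). Leaving out an RTA-408 replicate on all 5 days also ended calls. These were Alox5ap on day -4 (replicate 1, 1.39, adjusted p = 0.119) and day 3 (replicate 3, 0.84, 0.371), Hpgd on day 3 (replicate 3, 1.25, 0.0616), Ptgs1 on day 3 (replicate 1, 1.32, 0.142) and Ptges on day 7 (replicate 3, 1.23, 0.142) and day 14 (replicate 2, 1.61, 0.0748). Alox5ap on day 3 also ended without baseline replicate 3 (1.36, adjusted p = 0.0513), and Hpgd on day -4 without RTA-408 replicate 1 or 3 (adjusted p = 0.179 and 0.363) or baseline replicate 1, 3, 5 or 6 (0.0530, 0.0752, 0.102 and 0.0704).

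Unirradiated skin gave no member call against baseline on any day (either direction, 0.0173%, 0.315%, 0%, 2.71% and 0% of all features were called by limma), with 9 of 45 member tests at an unadjusted p under 0.05, where 9.77% of the tests of all features were. Of these, 5 were on day 7 (17.4% of all features), where the differences of Ptgs1, Ptges, Hpgd, Alox5 and Alox5ap were 1.27, 1.25, 1.21, 1.00 and 1.19 (limma's adjusted p from 0.0854 to 0.197). Alox5 on day -4, under the controls in both unirradiated arrays, was at least 0.35 below baseline, and on day 1 it differed by 1.24 ± 0.33 (SE; limma's adjusted p = 0.505 and 0.0735). Leaving out 1 baseline array brought Alox5 under the threshold on day 1 (replicate 2, 4 or 5, limma's adjusted p = 0.0429, 0.0399 and 0.0349). The same held on day 7 (replicate 4 or 5, 0.0332 and 0.0411). Without unirradiated replicate 1, which left 1 unirradiated array on day 7, the Ptgs1 difference on that day was 2.22. Over the 5 days and baseline together, limma's F-test passed 7 of 9 members in irradiated vehicle skin (27% of all features), 6 of 9 in irradiated RTA-408 skin (20.1%) and Alox5 alone in unirradiated skin (adjusted p = 0.0282; 1.31%). That last call ended without unirradiated replicate 1 (adjusted p = 0.379) or 2 (0.138). Ptgds passed in the vehicle arm only (adjusted p = 0.0300), lies mostly under the controls, and did not pass without vehicle replicate 1 (0.166) or 3 (0.335).

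Rats biopsied at baseline can be compared with themselves. Alox5 was above the rat's own baseline in all 10 later biopsies of the 2 such vehicle rats, by 0.90 to 3.99, and in all 10 of the 2 such RTA-408 rats, by 1.69 to 3.42, while in unirradiated rats it was above in 4 of 8, with changes from -1.60, down to a signal under the controls, to 1.21. Alox5ap was above in 9 of 10 vehicle, 10 of 10 RTA-408 and 5 of 8 unirradiated biopsies. Hpgd was above in 10, 8 and 7 of them. Ptgs2 was above in 8 of 10 biopsies in each irradiated arm, by up to 4.67 with vehicle and 4.70 with RTA-408, and in 7 of 8 unirradiated ones, by up to 1.46.

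Neighbouring days were compared after the data had been seen. From day 3 to day 7 in irradiated vehicle skin, 4 members rose (2.13% of all features were called higher): Ptgs2 by 3.61 ± 0.89 (SE; limma's adjusted p = 0.0181), Ptges by 1.83 (0.0422), Hpgd by 1.88 (0.00433) and Alox5ap by 2.07 (0.0131). Ptgs2 did not pass without vehicle replicate 1 (3.81, adjusted p = 0.0522), Ptges without 2 (1.58, 0.271) or 3 (1.51, 0.322), Hpgd without 3 (1.62, 0.0733) and Alox5ap without 1 (1.87, 0.0952) or 3 (1.80, 0.0843). With RTA-408 the same step gave 2.37 for Ptgs2, 1.31 for Hpgd and 1.49 for Alox5ap, with no member called (limma's adjusted p = 0.257, 0.116 and 0.173; 0.548% of all features were called higher), and these 3 were at an unadjusted p under 0.05, as were 11.3% of all features. From day 7 to day 14 Ptgs2 fell by 4.00 ± 0.89 (SE) with RTA-408 (limma's adjusted p = 0.0234; 0.574% of all features were called lower), a call that ended without replicate 1 (-3.95, adjusted p = 0.202), 2 (-4.50, 0.119) or 3 (-3.54, 0.404). With vehicle no member was called over that step (0.211% in either direction). There Ptgs2 changed by -2.32 (adjusted p = 0.317), and by -3.79 (adjusted p = 0.0154) without rat 320. Hpgd changed by -1.13 (adjusted p = 0.252), and by -1.95 (0.0441) without vehicle replicate 2.

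**Figure D3:**
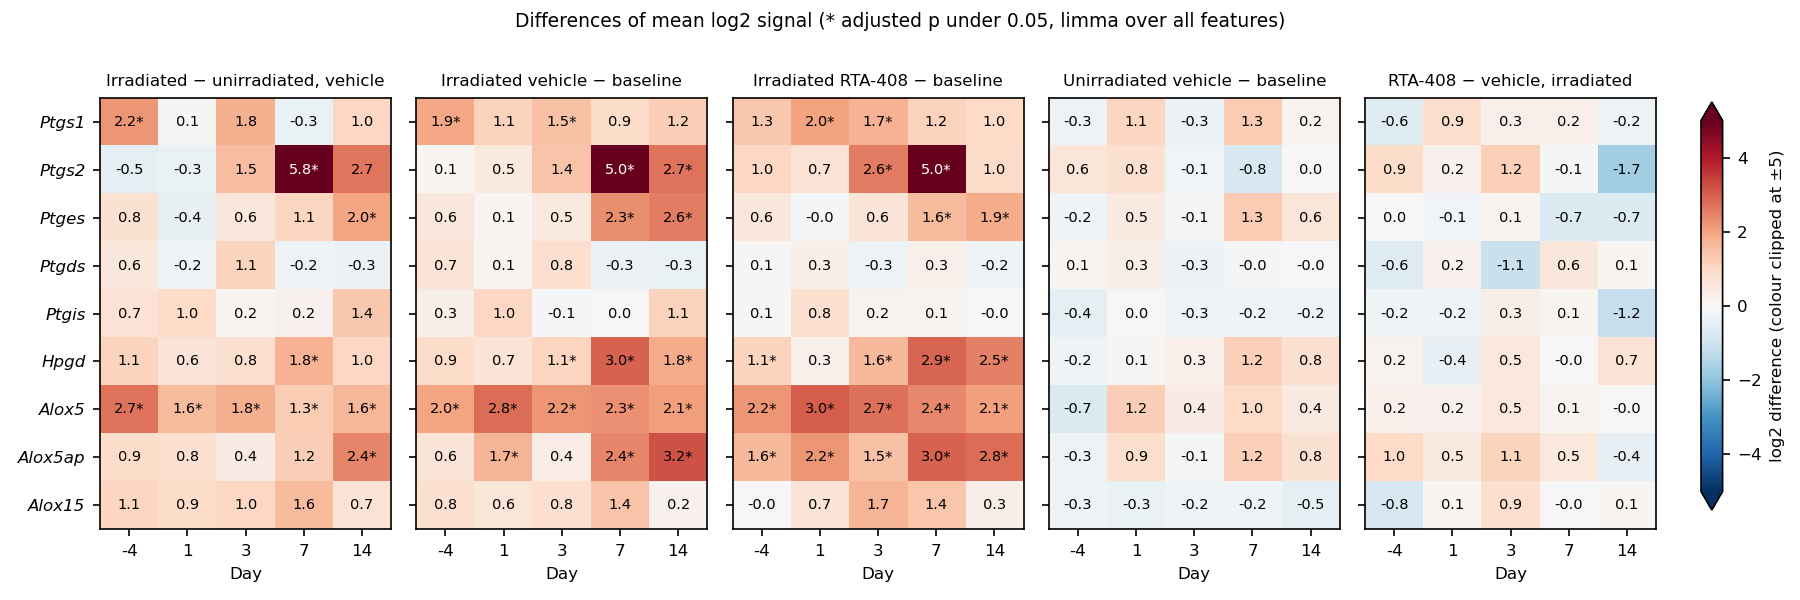
Log2 differences of group means for the 9 members (rows) on 5 days (columns) in 5 comparisons, with an asterisk where limma's adjusted p was under 0.05. For groups under the controls (mostly Ptgds, Ptgis and Alox15) the fitted value is drawn, not the bound. Called differences are all positive and lie in the 3 comparisons that set irradiated skin against unirradiated or baseline skin. Unirradiated skin against baseline and RTA-408 against vehicle have none.

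RTA-408 was compared with vehicle in irradiated skin, 3 rats against 3 on each day. No member was called on any day (0.0474%, 0.0733%, 0.00431%, 0% and 0% of all features were called by limma in either direction), and 2 of 45 member tests had an unadjusted p under 0.05. Over all features that share was 5.13%. Both were on day 3. All 3 RTA-408 arrays of Ptgds were under the controls, which puts its signal at least 0.50 below vehicle, and Alox5ap differed by 1.10 ± 0.49 (SE; both with limma's adjusted p = 1.00). For Ptgs2 the intervals were wide. On day 7 the RTA-408 mean was 11.87 ± 0.65 (SD, n = 3) and the vehicle mean 11.92 ± 1.08 (SD, n = 3). The difference was -0.05, with a 95% interval of -1.87 to 1.76. On day 3 the Ptgs2 difference was 1.19 (interval -0.62 to 3.01) and on day 14 -1.73 (interval -3.55 to 0.08; adjusted p = 0.421). Without rat 320 the day 14 value was 0.36. Alox5 differed by 0.24, 0.23, 0.54, 0.12 and -0.02 on the 5 days (the last 0.30 without rat 320), and the widest reach of its intervals was on day 3 (-0.13 to 1.21). A missed threshold does not show equal levels. This comparison and that of radiation share the irradiated vehicle arrays.

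Hpgd differed between the drug arms by 0.19, -0.42, 0.54, -0.04 and 0.67 (the last 0.09 without rat 320) and Ptges by 0.01, -0.15, 0.15, -0.73 and -0.69 (the last -0.39 without rat 320). Ptgs1 on day 1 read 11.35, 10.58 and 10.47 with RTA-408 and 9.79, 9.85 and 10.09 with vehicle, without overlap (difference 0.89, interval -0.16 to 1.95). On day -4 the vehicle arrays of Ptgs1 were the higher, also without overlap (difference -0.60, interval -1.65 to 0.46). On day 14 all 3 RTA-408 arrays of Ptgis were under the controls, at least 0.60 below vehicle (adjusted p = 0.425). This passed without vehicle replicate 1 (0.0439), which leaves rat 320 with 1 other rat, and without rat 320 both arms were at the control level. Alox5ap differed by 0.99, 0.50, 1.10 and 0.53 on days -4 to 7 and by -0.40 on day 14 (0.29 without rat 320). The macrophage list mean was higher in all RTA-408 arrays than in all vehicle arrays on day -4 (9.48 to 10.3 against 8.64 to 9.30) and ran from 9.25 to 10.9 against 8.21 to 9.29 on day 3, and its part in these values was not tested.

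Averaged over the 5 days for each rat, Alox5ap had a mean of 10.37 ± 0.30 (SD, n = 3) in the RTA-408 rats, and of 9.82 ± 0.28 (SD, n = 3) in the vehicle rats. The difference was 0.54 ± 0.18 (SE; interval 0.13 to 0.96; adjusted p = 1.00), and for Alox5 it was 0.22 ± 0.10 (SE; interval from just under 0 to 0.45). No member was called (0.00863% of all features were), and 1 of 9 had an unadjusted p under 0.05 by limma. The change of the drug effect over the days passed for no member (0.0129% of all features), with 1 of 9, Ptgds, at an unadjusted p under 0.05.

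**Figure D4:**
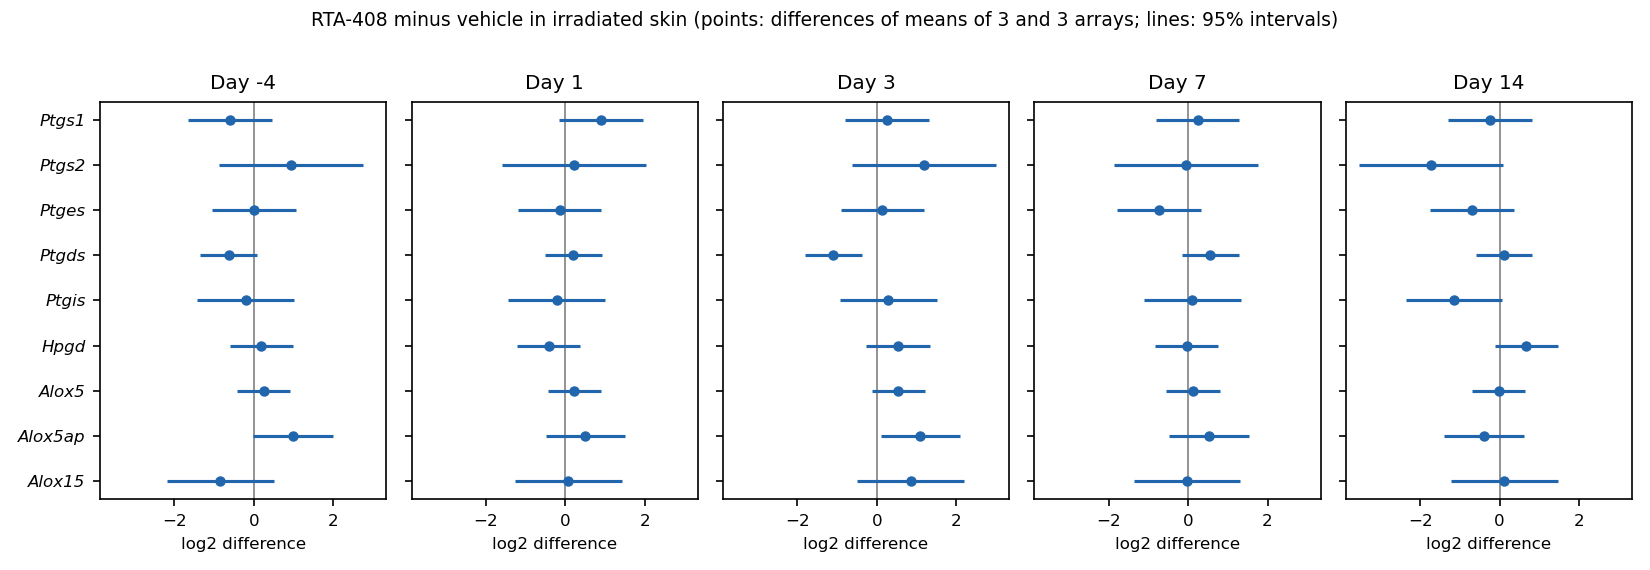
Difference in mean log2 signal between RTA-408 and vehicle in irradiated skin (x axes) for the 9 members (rows) on each day (panels). Points are differences of 3 against 3 arrays and lines are 95% intervals of the limma fit. Ptgds, Ptgis and Alox15, mostly under the controls, are drawn at their fitted values. Intervals of Ptgs2 are the widest, and those of Ptgds and Alox5ap on day 3 lie to one side of 0 before adjustment.

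Other genes of the pathway were taken from 5 lists, of which 47 genes were measured. Of 10 measured phospholipase genes, which release arachidonic acid or restrain its release, 1 was lower on day -4 (Pla2g4b, by 1.85) and 2 were higher on day 7 (Pla2g4a by 1.69 ± 0.42, SE, and Pla2g4b by 2.42 ± 0.57, SE). On day 14, 3 were higher: Pla2g2a by at least 2.55, Pla2g2d by 3.22 and Pla2g15 by 1.94. Of 10 other synthases, reductases and carriers, 1 was higher on days -4 and 1 (the prostaglandin reductases Ptgr1, by 1.94, and Ptgr2, by 1.27). On day 14, 3 were higher: Hpgds, the haematopoietic prostaglandin D synthase, by 1.89, Tbxas1, thromboxane synthase, by at least 1.15, and Ptgr1 by 2.02. Of 7 prostanoid receptors, the prostaglandin E receptor Ptger4 was lower on day -4, by 2.23 ± 0.69 (SE; adjusted p = 0.0428), and the prostacyclin receptor Ptgir was higher on day 14, by at least 0.85. Of 10 leukotriene genes, Ggt1 was lower on day -4, by at least 2.39, and Dpep2 higher on day 14, by 1.53, both peptidases that act on cysteinyl leukotrienes. The enzymes next to Alox5, Lta4h and Ltc4s, were not called on any day. Without rat 320 none of the 9 pathway calls of day 14, that of Alox12e included, held (adjusted p from 0.0561 for Hpgds to 0.439 for Pla2g2d), and the difference of Pla2g2d was 1.79 and that of Pla2g15 1.01.

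Of 10 other lipoxygenases and epoxide enzymes, Ephx1, microsomal epoxide hydrolase, was higher on days -4, 1 and 3, by 4.12, 2.71 and 3.11 ± 0.45 (SE). Alox12e, an epidermal lipoxygenase, went the opposite way to Alox5. On day 1 it averaged 9.36 ± 0.05 (SD, n = 2) in unirradiated skin and was under the controls in all 3 irradiated vehicle arrays, lower by at least 3.19 (adjusted p = 6.23e-05). It was lower by at least 2.22 on day 3, 2.43 on day 7 and 0.63 on day 14. All 15 irradiated vehicle and all 15 RTA-408 arrays of Alox12e were under the controls. Hair follicle markers were also lower in irradiated skin (3, 1, 3, 0 and 3 of 8 on the 5 days, none higher). Over all features, 1721, 488, 302, 932 and 1614 were called in either direction, of which 749, 279, 152, 623 and 1027 were higher. Without rat 320, 0 of the 8 markers were called lower on day 14, with a median difference of -5.24. The part of hair follicles in the Alox12e difference was not tested. With RTA-408 against vehicle, none of the 47 genes was called on any day (limma), and 20 of 235 tests had an unadjusted p under 0.05, where 5.13% of the tests of all features had.

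The transcripts whose signal was most like each member's over the 46 arrays were listed among 14872 named genes. For Ptgs2 they were Il24, Osmr and Ccl7 (r = 0.91, 0.89 and 0.88), a cytokine, a cytokine receptor and a chemokine. For Ptges they were Glrx, Icos and Klk9 (0.83, 0.83 and 0.83), and for Ptgs1 Irak3, Ggta1 and Clec2g (0.85, 0.84 and 0.84). For Hpgd they were Dnase1l3, Ereg and Rbp2 (0.89, 0.89 and 0.87). Alox5 was closest to Grina, Ecm1 and Ccl21 (0.92, 0.92 and 0.91), and Alox5ap to the macrophage genes Ctss, Pld4 and C1qb (0.96, 0.95 and 0.94). For Ptgds and Ptgis, mostly under the controls, the closest were Deaf1 (0.63) and Xpnpep2 (0.78). Among the members themselves, the highest correlations were between Ptgs1 and Alox5 (0.72), Ptges and Hpgd (0.71) and Alox5 and Alox5ap (0.68), and that of the 2 cyclooxygenases was 0.16. The arrays share rats, days and treatment, so these are descriptions.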

How the data were processed

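The authors deposited 1 table of log2 signals, 1 value per feature of the Clariom S array and sample; its background correction and normalization are not given in the sources used here. Per the labels, RNA (100 ng, mean integrity number 7.15) was labelled with biotin. Values were used as deposited. Of 24834 features, 1646 controls were left out. Symbols came from the supplied platform annotation (15049 features with 1, 8139 with none), and promoters from RefSeq.

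A mean per group (16 groups, 46 arrays) was fitted in R 4.3.3 by limma 3.58.1, whose empirical Bayes step moderates the variances. Benjamini-Hochberg adjustment ran over all 23188 features, separately per comparison and day; "called" means an adjusted p under 0.05. SD is within groups and SE is the model's. A group with every array at or under its negative control median (1153 features) has only a bound, given as "at least". Named were all 9 members, the called genes of 5 pathway lists (the 4 with the largest difference where more were called) and, per member, the 3 genes with the highest correlation. The members, lists and tests were chosen with earlier results of these data known. Alternatives were quantile normalization, a filter on dim features, array weights, blocks for rat, replicate number or spike-in set, the compared groups alone, and leaving out replicates. A replicate left out was left out on every day of its arm. The fit was tested on simulated data. The number of arrays limits the precision.

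Same-rat arrays hardly deviated together (median correlation 0.018 over 102 pairs, -0.001 between other rats), and replicate numbers of different arms are different rats.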

Additional observations from a re-analysis of the deposited data

Results flagged for a closer look

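Among the baseline arrays, replicate 2 (rat 323) had the highest Ptgs2 signal, 7.9373, with the next at 6.8646. The gap was 0.729 of the range of the 6 arrays, above Dixon's 95% critical value. In the same way replicate 4 (rat 321) had the highest Alox5ap signal, 9.1964, with the next at 8.161 (gap 0.668). The macrophage and monocyte list mean of that array, 8.96, was also the highest of the 6. Chance flags about 1 in 20 groups, and 9 were looked at here.

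The Ptgs2 difference between irradiated and unirradiated skin changed over the 5 days (limma's F-test, adjusted p = 0.0338836), with the highest value on day 7.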

How the results depend on the processing

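Of 45 member tests against unirradiated skin 10 were called, 5 to 9 with 1 replicate left out: 5 without irradiated vehicle replicate 3 or unirradiated replicate 1 and 6 without unirradiated replicate 2. Over all features, the radiation calls on the 5 days were 1721, 488, 302, 932 and 1614. Without vehicle replicate 3 they were 1142, 383, 217, 600 and 326. Without vehicle replicate 1 they were 608, 183, 161, 948 and 2790. The drug comparison had 0 calls and 0 to 1 with a replicate left out. The 1 was Ptgis on day 14 without irradiated vehicle replicate 1, where 1185 of all features were called. Irradiated vehicle skin against baseline had 17 (14 to 18), and 10 with the spike-in set as a block; RTA-408 skin had 20 (16 to 23), and 13 with that block. Unirradiated skin against baseline had 0 (0 to 2 with a replicate left out), 3 with array weights and 2 with the replicate number as a replicate block. The change of the radiation effect passed for 1 member (0 to 1), and 0 within spike-in sets. Any change in unirradiated skin passed for 1 (0 to 1), and 0 with the spike-in set as a block or within sets. With the replicate number as a block, the radiation difference of Ptges on day 14 was 1.79 (adjusted p = 0.0582); with the rat as a random block the pairing of arrays by rat had a consensus correlation of 0.00672. No direction of a called member difference reversed under any alternative. Comparisons within spike-in sets and between days were added after the data were seen. Fitting only the compared groups ended the 3 day 14 radiation calls (limma's adjusted p = 0.755 for each), with fewer arrays for the spread. On that day 0 of all features were called in that fit. The same alternative called Hpgd on day -4 and Alox5ap on day 7 (limma's adjusted p = 0.0463 and 0.0419). Array weights called Hpgd on days -4 and 14 (limma's adjusted p = 0.0256 and 0.00998). Quantile normalization moved the adjusted p of Alox5 on day 7 to 0.0569. The cause of these changes was not tested. Ptgds, Ptgis and Alox15 were mostly at or under the control signal, and from that level a further fall cannot be seen.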
